A study of Mus musculus with 141 samples.

Results

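The genes described here encode 9 enzymes that break down the aromatic amino acids. Tat, Hpd, Hgd and Fah act in the degradation of tyrosine, and Tdo2, Ido2, Kmo, Kynu and Haao act in the kynurenine pathway of tryptophan. They were chosen by name, and all 9 were found among the 24423 genes of each file and among the 12127 genes that passed the low-count filter of the tissue comparison. RNA-seq was performed on whole liver, lung and kidney from 1 male mouse of each of 47 Collaborative Cross (CC) strains, recombinant inbred lines descended from a common set of founders, which gave 3 groups of 47 libraries. The mice were 8 to 12 weeks old, received the same wafer diet, and all spent 6 h a day on weekdays for 2 weeks in mesh chambers supplied with clean air. Before they were killed, all mice received an anaesthetic dose of nembutal by intraperitoneal injection. No other treatment is given. The genotypes were not analysed here, and with 1 mouse per strain the strain and the individual animal cannot be told apart.

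Tyrosine is degraded in sequence. Tyrosine aminotransferase (Tat) removes the amino group, 4-hydroxyphenylpyruvate dioxygenase (Hpd) makes homogentisate, homogentisate dioxygenase (Hgd) opens the ring, and fumarylacetoacetase (Fah) cleaves the last intermediate into fumarate and acetoacetate. Tryptophan enters the kynurenine pathway through tryptophan dioxygenase (Tdo2) or the indoleamine dioxygenases (Ido1, Ido2), and kynurenine monooxygenase (Kmo), kynureninase (Kynu) and 3-hydroxyanthranilate dioxygenase (Haao) lead on towards NAD. The liver is the main site of both routes, Tat and Tdo2 are classical glucocorticoid-induced liver enzymes, and inherited loss of FAH or HGD causes tyrosinaemia or alkaptonuria in humans.

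The median library held 10423382 counts in liver, 9338124 in lung and 8245850 in kidney. Liver libraries spanned 1738046 to 42158454 counts, lung libraries 2829104 to 17585682 and kidney libraries 3046695 to 15028553. The 45S ribosomal RNA precursor Rn45s took between 0.146% and 71.7% of the counts of a library, so counts relative to the library total (CPM) were rescaled with TMM, the trimmed mean of M-values, and levels are TMM-scaled CPM unless stated otherwise. A count of 3, treated as the smallest resolved value, equalled 0.288 CPM in a liver, 0.321 CPM in a lung and 0.364 CPM in a kidney of median depth, which covers counting error only. The summed level of 8 hepatocyte markers was 66440 to 218310 CPM in liver, that of 8 proximal tubule markers was 14214 to 45071 CPM in kidney, and that of 7 lung epithelial markers was 7463 to 16804 CPM in lung, so the tissue labels carried their own markers. In whole tissue, a lower share of a cell type and less RNA per cell cannot be told apart.

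The sequences before the starts of Tat, Hpd, Hgd and Tdo2 are shown because Hpd was correlated with both Tat and Hgd across livers, and because Tat and Tdo2 had the largest liver-to-kidney differences of the 9. RefSeq promoter windows (GRCm38.p6) were matched for 7 of the 9 genes. Kynu and Ido2 had no matching entry. Each sequence gives the 250 bases before the annotated start, read 5′ to 3′ on the strand of the gene, and capitals mark matches, on either strand, to any of 6 motifs.
Tat (chr8:109990186-109990435, forward strand): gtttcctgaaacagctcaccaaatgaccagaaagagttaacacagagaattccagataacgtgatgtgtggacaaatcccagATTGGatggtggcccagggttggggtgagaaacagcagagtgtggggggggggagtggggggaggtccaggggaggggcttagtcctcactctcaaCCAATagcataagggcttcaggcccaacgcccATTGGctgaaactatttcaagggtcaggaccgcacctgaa
Hpd (chr5:123182724-123182973, reverse strand): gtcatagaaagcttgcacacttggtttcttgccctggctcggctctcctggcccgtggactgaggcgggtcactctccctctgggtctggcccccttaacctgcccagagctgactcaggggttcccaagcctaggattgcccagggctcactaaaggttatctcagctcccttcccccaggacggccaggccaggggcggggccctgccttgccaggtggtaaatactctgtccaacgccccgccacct
Hgd (chr16:37579903-37580152, forward strand): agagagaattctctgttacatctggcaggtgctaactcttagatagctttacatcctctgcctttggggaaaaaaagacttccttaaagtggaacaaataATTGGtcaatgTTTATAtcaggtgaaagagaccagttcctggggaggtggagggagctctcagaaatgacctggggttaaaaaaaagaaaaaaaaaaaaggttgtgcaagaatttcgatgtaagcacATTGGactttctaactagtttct
Tdo2 (chr3:81975729-81975978, reverse strand): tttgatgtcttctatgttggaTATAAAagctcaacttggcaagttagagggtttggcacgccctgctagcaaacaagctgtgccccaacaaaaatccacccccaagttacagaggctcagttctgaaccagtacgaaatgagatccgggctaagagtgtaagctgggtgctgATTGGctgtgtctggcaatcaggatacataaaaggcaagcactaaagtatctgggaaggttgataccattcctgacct

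The motifs searched were CCAAT (the CCAAT box), TATAAA (the TATA box), TGTTCT (a glucocorticoid receptor half-site), GTTAAT (an HNF1 half-site), CAAAGT (an HNF4 core) and TTGCAA (a C/EBP core). CCAAT was present in the windows of Tat, Hgd and Tdo2 and in 34.5% of all 27025 promoters, and TATAAA was present in Hgd and Tdo2 and in 13% of promoters. TGTTCT and GTTAAT were found in Haao only among the 7 genes, against 16.2% and 6.52% of promoters, and CAAAGT was found in Kmo only, against 12.5%. TTGCAA was in none of the 7 and in 5.33% of promoters. The windows of Hpd and Fah held none of the 6 motifs. The Fah window was 64.4% G and C with 16 CG dinucleotides and that of Hgd was 38.8% with 1, beside medians of 52% and 6 over all promoters. A match to a few letters is a description of the sequence and says nothing about binding.

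All 9 genes were higher in liver than in lung and in kidney. The 4 tyrosine enzymes fell into different classes outside the liver. Tat had a median of 1.09 CPM in lung and 0.597 CPM in kidney, whereas Hgd and Fah were present in kidney at levels within a few fold of liver, and Hpd lay in between.

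Tat (NCBIM37 chr8:112514337-112523703), which starts tyrosine breakdown, ranged from 818 CPM (CC031) through a median of 1510 to 6942 CPM (CC015) in liver. It ranged from 0.134 to 13.1 CPM in lung (median 1.09) and from 0 to 14.6 CPM in kidney (median 0.597), with at most 3 counts in 9 lungs and 18 kidneys. The lowest liver was therefore far above the highest lung or kidney. The log2 fold change was 10.58 (SE 0.199) for liver over lung and 11.37 (SE 0.259) for liver over kidney.

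Hpd (chr5:123621816-123632734), which makes homogentisate, was the most abundant member in liver, with a lowest value of 1151 CPM (CC045), a median of 2158 and a highest value of 4231 CPM (CC021). In kidney it ran from 5.6 CPM (CC020) through 83.7 to 349.7 CPM (CC053), and in lung from 0 through 1.41 to 22 CPM (CC010). No kidney reached the lowest liver, yet the kidneys differed among themselves by 62.5-fold. The lowest kidney, CC020, rested on 18 counts in a library of 3717587, and without it the kidneys ranged from 24.7 to 349.7 CPM. The log2 fold change was 4.76 (SE 0.118) for liver over kidney and 10.54 (SE 0.267) for liver over lung. Kidney exceeded lung in 47 of 47 strains.

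Hgd (chr16:37580239-37632106), which opens the aromatic ring, had a lowest, median and highest level of 39.4, 67.3 and 113 CPM in liver and of 16.4, 30.5 and 50.4 CPM in kidney. The liver and kidney ranges overlapped, but liver was the higher tissue in 46 of 47 strains. The liver-to-kidney difference was 1.21 on the log2 scale (SE 0.0659), a 2.31-fold excess. In lung the gene was at or under 3 counts in 41 of 47 libraries, and the log2 difference of 9.18 from liver ranged from 5.67 to 9.32 over 10 alternative settings.

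Fah (chr7:91733669-91755232), the last enzyme of the route, was the member seen most evenly. Its lowest, median and highest levels were 240, 753 and 914 CPM in liver, 80.7, 308 and 452 CPM in kidney and 8.13, 15.1 and 27.4 CPM in lung. No lung reached the lowest kidney. Liver exceeded kidney in every strain by a log2 fold change of 1.35 (SE 0.0511), although the ranges of the 2 tissues overlapped, and kidney exceeded lung in all 47 strains (lung minus kidney, -4.27, SE 0.065).

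Within the kynurenine pathway, Tdo2 and Kynu were low in kidney, whereas Kmo and Haao were within a few fold of liver there. Tdo2 (chr3:81761012-81780124), the hepatic entry enzyme, ranged from 1078 CPM (CC017) through 1902 to 3204 CPM (CC010) in liver. It ranged from 0.586 to 22.5 CPM in lung (median 2.53) and from 0 to 31.1 CPM in kidney (median 0.946). The highest values outside the liver thus stayed below the lowest liver by more than an order of magnitude, and the log2 fold change was 9.67 (SE 0.146) over lung and 10.61 (SE 0.205) over kidney.

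Ido2 (chr8:25642364-25686805), a second entry enzyme with low catalytic efficiency, was far less abundant, at 19.2 CPM (CC039), a median of 63.7 and 109 CPM (CC062) in liver. Kidneys held 1.13 to 16 CPM (median 6.13), and lungs held 0 to 1.05 CPM with at most 3 counts in 29 of 47 libraries. Liver was above kidney by a log2 fold change of 3.36 (SE 0.0973) in 47 of 47 strains. The other indoleamine dioxygenase, Ido1, is not among the 9, averaged 0 CPM in liver, 0.148 CPM in lung and 0.00971 CPM in kidney, and did not pass the filter. It was listed with 2 transcripts, and the effect of counting only uniquely aligned reads on its level was not tested.

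Kmo (chr1:177550512-177592247), which hydroxylates kynurenine, had a lowest, median and highest level of 258, 428 and 805 CPM in liver, of 66.9, 119 and 190 CPM in kidney and of 1.6, 4.82 and 14.3 CPM in lung. The 3 tissues did not overlap. The log2 fold change was 1.84 (SE 0.0766) for liver over kidney and 6.25 (SE 0.114) for liver over lung. The annotation places Kmo over part of Fh1, encoded on the opposite strand, and whether the counting used strand is not given in the sources used here.

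Haao (chr17:84230696-84246130), which converts 3-hydroxyanthranilate, behaved like Kmo, with 219, 403 and 667 CPM as the lowest, median and highest liver and 61.2, 118 and 231 CPM in kidney. In lung it lay between 0.909 and 7.35 CPM. The highest kidney slightly exceeded the lowest liver, but liver was higher in all 47 strains, by a log2 fold change of 1.72 (SE 0.0679).

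Kynu (chr2:43410849-43538235), the kynureninase between Kmo and Haao, differed from both. In liver it ranged from 61.2 CPM (CC068) through 102 to 174 CPM (CC015), but in kidney only from 0 through 2.27 to 13.6 CPM (CC012), and in lung from 0.247 through 1.31 to 2.92 CPM. Liver was above kidney by a log2 fold change of 5.37 (SE 0.136), compared with 1.84 for Kmo and 1.72 for Haao in the same mice. Kidney thus held Kmo and Haao within a few fold of liver but little Kynu.

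**Figure D1:**
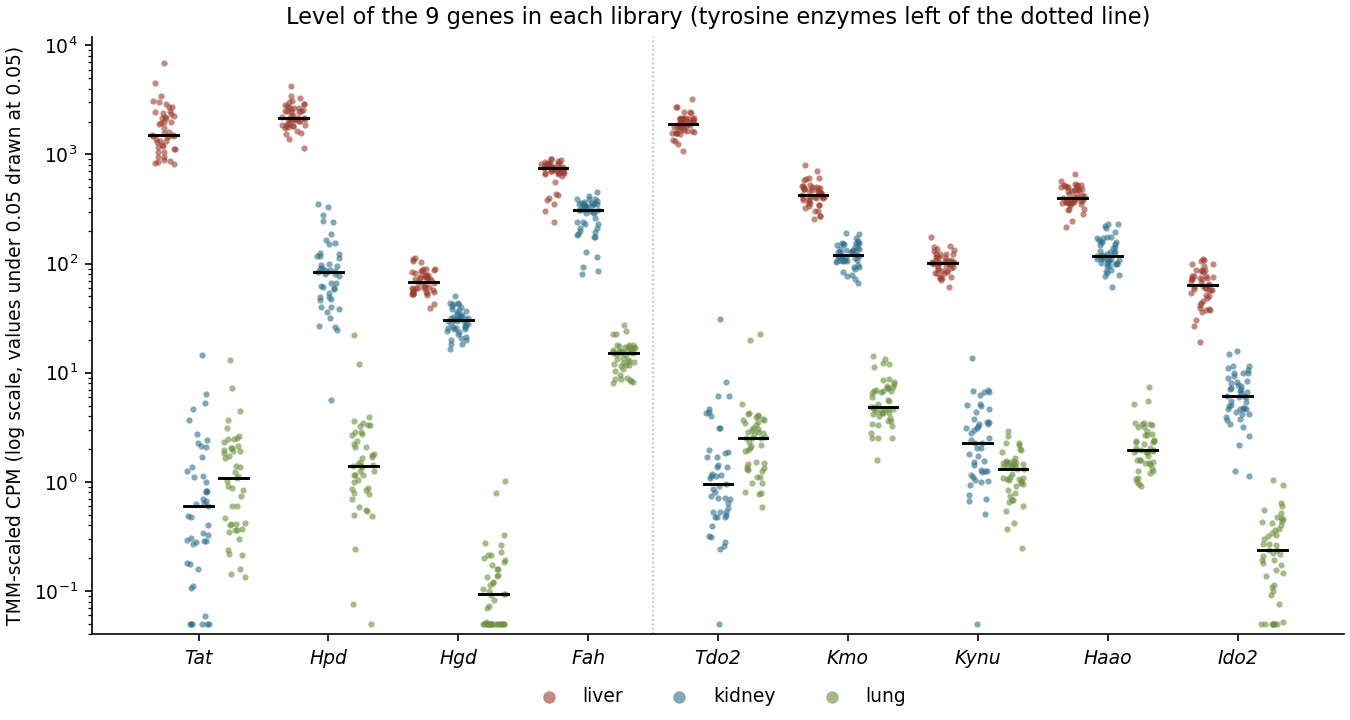
Level of each gene in each library, as TMM-scaled CPM on a log axis, for 47 livers, 47 kidneys and 47 lungs, with a bar at the median. Tat and Tdo2 had medians between 0.597 and 2.53 CPM outside the liver, Hgd, Fah, Kmo and Haao lay within a few fold of liver in kidney, and Hpd varied most between kidneys among the members with medians above 10 CPM there.

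In the test over all genes (limma-voom with strain as a block, Benjamini-Hochberg q of at most 0.1 and a log2 fold change of 1 or more in either direction), 9 of 9 members were called higher in liver than in lung and 9 of 9 higher in liver than in kidney. Of all genes tested, 23.9% were called higher in liver than in lung and 15.6% higher in liver than in kidney. Between lung and kidney, 6 of 9 members were called higher in kidney, where 20.6% of all genes were, and 0 were called higher in lung, where 25.5% of all genes were.

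The largest q of limma-voom among the 18 comparisons with liver was 1.1e-32. The remaining 3 members passed the q threshold between lung and kidney but lay under the fold threshold. Kynu was higher in kidney in 35 of 47 strains (log2 fold change -0.99, SE 0.189), while Tdo2 was higher in lung in 32 of 47 (0.94, SE 0.243) and Tat in 26 of 47 (0.78, SE 0.319), the last with many values at or under 3 counts.

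On the scale of log2(TPM + 1), where no TMM scaling was applied and the median of all genes moved by -0.71 between liver and kidney, the liver-to-kidney differences of Hgd (0.25), Fah (0.40), Haao (0.75) and Kmo (0.88) fell under the fold threshold. The direction was the same on both scales. Relative to the median gene, these 4 members remained higher in liver, but the size of the liver excess over kidney depends on the scaling.

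**Figure D2:**
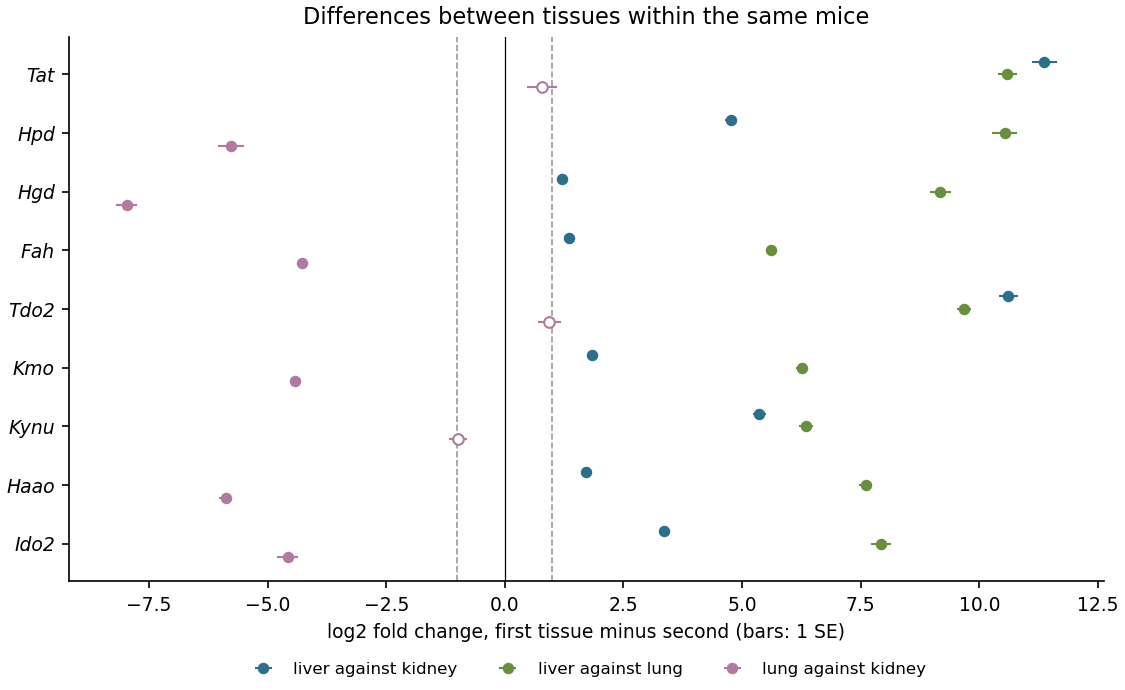
Log2 fold change of each gene between tissues of the same mice, with bars of 1 SE on either side and dashed lines at the threshold of 1 in either direction. Filled points were called and open points were not. All differences from liver lie to the right of the threshold, from 1.21 to 11.37.

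Levels per transcript length were compared with TMM-normalized TPM, a length-corrected share of the transcripts of a library, which were scaled within a tissue and so order genes only inside it. In liver the median TPM fell in the order Hpd (2515), Tdo2 (1840), Tat (1001), Fah (741), Haao (525), Kmo (266), Hgd (62.1), Kynu (53.4) and Ido2 (32.8). Neighbours kept this order in 34 to 47 of the 47 livers, with Hgd above Kynu in 34 and Tat above Fah in 36 as the least regular steps. In kidney the order was Fah (604), Haao (302), Hpd (189), Kmo (147), Hgd (55.4), Ido2 (6.24), Kynu (2.34), Tdo2 (1.83) and Tat (0.77), and Kynu exceeded Tdo2 in only 23 of 47 kidneys. The leading liver transcript, Hpd, was thus behind Fah and Haao in kidney. In lung, Fah led with a median TPM of 42 and exceeded the next member, Kmo (8.59), in all 47 libraries. The remaining lung medians lay between 0.241 and 7.22 TPM.

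Genes around the 9 members were taken from fixed lists of the same pathways, 43 genes in the files, of which 33 passed the filter. Between liver and lung, 24 of the 33 were called higher in liver and 5 higher in lung, beside 23.9% and 31% of all genes. Between liver and kidney, 10 were higher in liver and 6 higher in kidney, beside 15.6% and 20.8%. Between lung and kidney, 6 were higher in lung and 25 higher in kidney, beside 25.5% and 20.6%. The median log2 difference of the 33 was 3.22 between liver and lung, 0.48 between liver and kidney and -2.56 between lung and kidney, where the medians of all genes were -0.06, -0.0034 and 0.04.

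Of the list of phenylalanine and tyrosine catabolism, all 5 tested genes other than the members were called higher in liver than in lung, and 4 of 5 higher in liver than in kidney. Qdpr, which regenerates tetrahydrobiopterin, was higher in liver than in kidney by 1.35, and the aspartate aminotransferases Got1 and Got2 by 2.17 and 1.41. Gstz1, the maleylacetoacetate isomerase between Hgd and Fah, was listed with 3 transcripts and averaged only 0.485 CPM in liver, so the step between these members could not be followed. Only uniquely aligned reads were counted, Hgd was listed with 2 transcripts and Kynu with 3, and the effect of this on their counts was not tested.

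The 4 genes of tetrahydrobiopterin synthesis were all called higher in liver than in lung. Gch1, which starts this synthesis, averaged 142 CPM in liver against 1.65 CPM in kidney, a log2 fold change of 6.41 (SE 0.1), and its feedback regulator Gchfr was higher in liver by 2.43. Pts and Spr, the later enzymes, were not called between liver and kidney.

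Of the other kynurenine genes, 6 of 6 tested were higher in liver than in lung, but between liver and kidney only 1 was called higher and 1 lower. Qprt, which leads to NAD, was higher in liver by 2.20 (SE 0.0675). Acmsd, which diverts the pathway away from NAD, was higher in kidney, at 121.5 against 45.5 CPM (-1.46, SE 0.0984). Afmid, the formamidase that follows Tdo2, averaged 132 CPM in liver and 99.2 CPM in kidney, and Aadat, which turns kynurenine to kynurenic acid, averaged 202 and 208 CPM. The kidney therefore held Aadat, Afmid, Kmo, Haao and Acmsd within a few fold of liver, while Tdo2 and Kynu were low there.

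Among the 7 genes of NAD synthesis and salvage, Naprt was higher in liver than in kidney by 1.90 and Nmrk1 was higher in kidney, at 69.1 against 24.6 CPM, while Nmnat2 was highest in lung. Of the aromatic amine genes, Maob averaged 216 CPM in liver against 23.3 CPM in lung and 3.12 CPM in kidney, and Inmt, an amine methyltransferase, was higher in lung than in liver (liver minus lung, -2.02) and kidney (1.58). Of the transporters, Slc16a10, which carries aromatic amino acids, was higher in liver than in kidney by 1.56, whereas Slc6a19 and Tmem27, the apical transporter of neutral amino acids and its partner, reached 304 and 241 CPM in kidney against 1.43 and 0.963 CPM in liver.

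Across the 47 livers, Tat varied most among the members and Tdo2 and Kynu least. The standard deviation of log2 CPM was 0.683 for Tat, above 77.6% of the genes expressed in liver, and 0.552 for Ido2, above 68.8%. It was 0.429 for Fah, 0.357 for Hpd, 0.346 for Hgd and 0.344 for Kmo. It was 0.314 for Haao, 0.302 for Kynu and 0.296 for Tdo2, the last above only 30.5% of genes, and the median gene had 0.394. The liver enzymes at either entry, Tat and Tdo2, both glucocorticoid-induced, thus stood at opposite ends of the 9.

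In kidney, Hpd had a standard deviation of 1.09, above 94.8% of expressed genes, and its value at the 90th percentile was 6.02-fold that at the 10th. The highest kidneys were CC053 (349.7 CPM), CC012 (328.9 CPM) and CC028 (280.8 CPM), and the lowest was CC020 (5.6 CPM), followed by CC001 at 24.7 CPM. Liver Hpd, by the same measure, differed by 1.73-fold. Ido2 in kidney had a standard deviation of 0.78, above 84.8% of expressed genes, at a median of 55 counts. Fah in kidney had a standard deviation of 0.609, Haao 0.438, Hgd 0.367 and Kmo 0.347, beside a median of 0.372. Larger values for Tdo2 (1.48) and Kynu (1.23) in kidney came at medians of 9 and 18 counts.

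Whether strains kept their rank between tissues was tested with rank inverse normal values of TMM-normalized TPM, by permutation over strains and with adjustment over all genes expressed in both tissues. The test covered 8 members in the liver–kidney pair, 7 in the liver–lung pair and 6 in the lung–kidney pair. Fah passed between liver and kidney and between lung and kidney, and no other member passed in any pair. Positive correlations were called for 23.2% of genes between liver and kidney, 13% between liver and lung and 16.9% between lung and kidney, so 1 of 8, 0 of 7 and 1 of 6 members is no more than the background. The most positive of the other members was Hpd in the liver–kidney pair, where r was 0.303 (permutation p = 0.0369, q = 0.133, rho = 0.287, permutation p = 0.0514), with r = 0.405 without the 2 strains farthest from the median and q = 0.05 then.

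Fah fell into separate clusters in liver, so no coefficient of liver Fah with another gene or tissue is given over all strains. In 7 livers it ranged from 240 to 434 CPM and in the other 40 from 566 to 914 CPM, with no value between. The 7 strains were CC006, CC044, CC041, CC033, CC002, CC001 and CC015. Their kidneys held 85.8, 80.7, 176, 115, 93.3, 196 and 127 CPM in that order, beside a median of 330 and a range of 175 to 452 CPM in the other 40 kidneys. Their lungs held 8.73, 8.48, 8.27, 9.01, 8.82, 12.7 and 11.6 CPM, beside a median of 15.5 and a range of 8.13 to 27.4 CPM. Mice with the lowest Fah in liver were therefore among the lowest in kidney, and in 5 of the 7 lungs the value was near the bottom of the range.

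Over all strains the permutation test gave p = 0.00083 and q = 0.00981 between liver and kidney and p = 0.0005 and q = 0.00863 between lung and kidney, and p = 0.0643 and q = 0.252 between liver and lung. Within the 40 strains above the gap, r was 0.163 (rho 0.173) between liver and kidney, 0.279 (rho 0.321) between lung and kidney and -0.14 (rho -0.16) between liver and lung. Within the 7 it was 0.743 (rho 0.714), 0.444 (rho 0.429) and 0.8 (rho 0.857). These within-cluster values are descriptions with no test, because the split was made after the values were seen. Among the 40 strains alone, liver Fah and kidney Fah thus varied with little relation to each other.

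**Figure D3:**
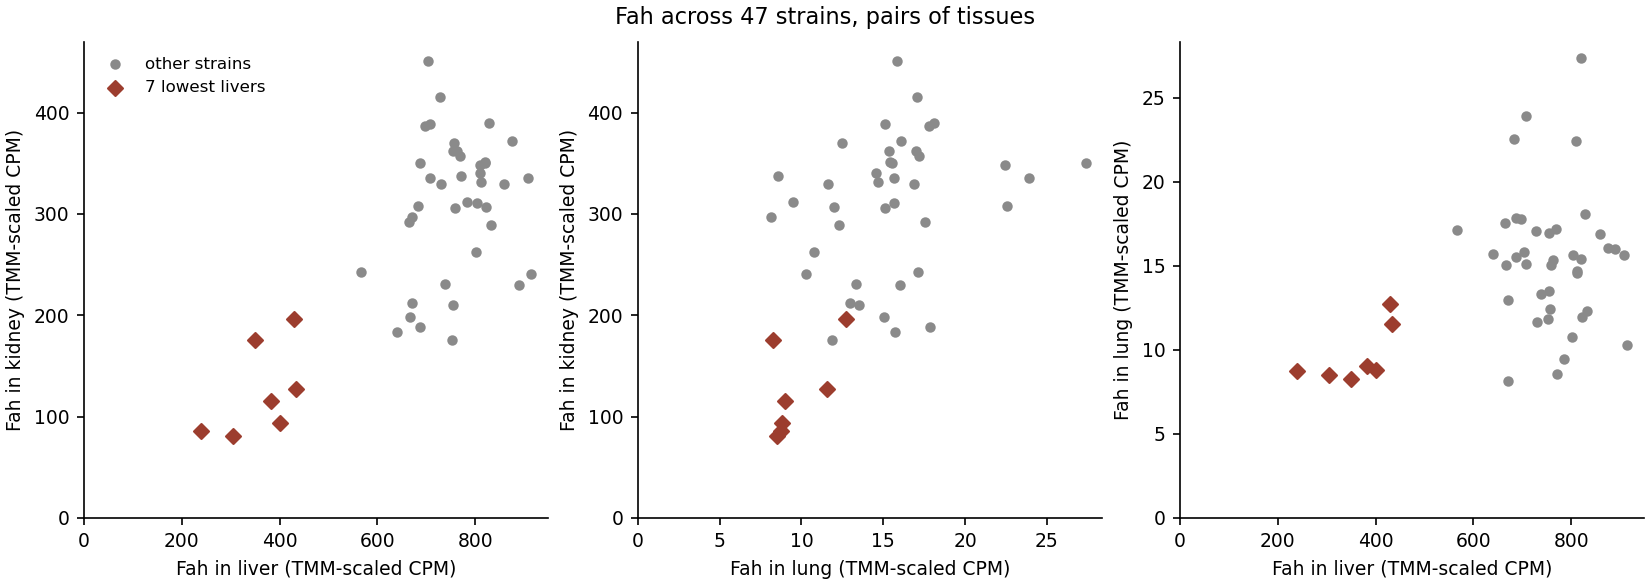
Fah in pairs of tissues of the same 47 mice, as TMM-scaled CPM, with each point 1 strain and diamonds for the 7 strains below the gap in liver. The 7 strains lie between 240 and 434 CPM in liver and between 80.7 and 196 CPM in kidney, and the other 40 show little slope.

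Within liver, correlations were called between some of the tyrosine enzymes and not among the kynurenine enzymes. Each member was correlated with every gene expressed in the tissue, with q over all of these relations, of which 0.985% were called in liver, 0.402% in kidney and 0.706% in lung. In liver, 3 of 36 pairs of members were called, and all 3 were among the 6 pairs of tyrosine enzymes. By rho, 2 of the 36 were called, Hpd with Hgd and Hgd with Fah. Of these 2 pairs called by rho, only Hpd and Hgd act in adjacent steps, because Gstz1 lies between Hgd and Fah. The 3 tyrosine pairs without Fah had r from 0.401 to 0.602. By the same permutation test, 0 of the 10 pairs of kynurenine enzymes were called (median 0.133, highest 0.308) and 0 of the 20 mixed pairs (median 0.137), with r or with rho, and 1 and 2 of them had an unadjusted p under 0.05. No test compared these groups of pairs with each other.

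Hpd and Hgd, which act in succession, were correlated with r = 0.602 (permutation p = 1e-05, the smallest that the permutations can give, q = 0.015; rho = 0.606, permutation p = 2e-05), and r was 0.54 without the 2 strains farthest from the median. Tat and Hpd had r = 0.501 (permutation p = 0.00036, q = 0.0666; rho = 0.435, permutation p = 0.00256, q of rho = 0.164). The call was lost with rho, and r fell to 0.397 with q = 0.3 without the 2 farthest strains and to 0.361 with q = 0.37 without the 11 strains that had a library under 4000000 counts. The call for Tat and Hpd therefore depended on the coefficient and on which strains were included. Hgd and Fah passed over all strains (permutation p = 0.00022, q = 0.0527) but not without the 2 farthest strains (q = 0.28) or on log2 CPM (q = 0.46). Because Fah was split, r is given within the 40 strains above the gap, where it was 0.675 (rho 0.689), and within the 7, where it was 0.3 (rho 0.357). Hpd and Fah narrowly missed the threshold (q = 0.11), with r = 0.531 within the 40.

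Without TMM scaling, all 36 pairs of members in liver were called positive. The share of counts taken by Rn45s was not called with any of the 9 members after TMM scaling (r from -0.25 to 0.12). Its part in the result without scaling was not tested. The hepatocyte marker sum (r from -0.14 to 0.21) and the total count (r from -0.01 to 0.3) were not called with any member in liver either.

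In kidney, 0 of 28 pairs were called by the permutation test with r or rho, 4 had an unadjusted p under 0.05, and r ranged from -0.39 (Fah and Kynu) to 0.449 (Hpd and Kynu, q = 0.15). Hpd and Hgd, the pair that was closest in liver, had r = 0.05 in kidney. Whether this differed from liver was not tested. The proximal tubule marker sum had r = 0.467 with Fah, 0.439 with Haao and -0.46 with Kynu in kidney (q = 0.137, 0.173 and 0.148 by the permutation test), and its part in these relations was not tested.

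**Figure D4:**
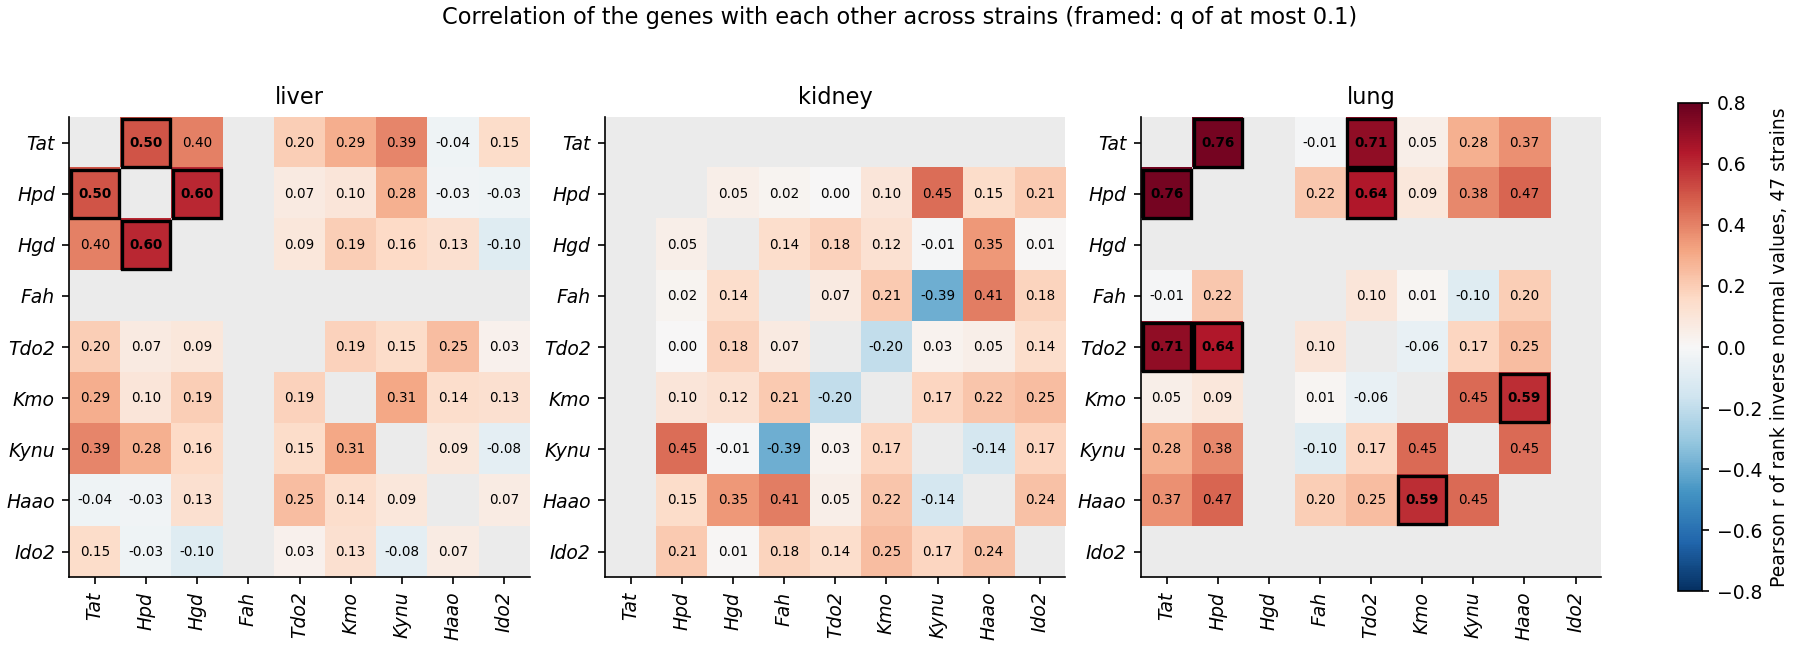
Pearson correlation of the genes with each other across 47 strains in each tissue, on rank inverse normal values, with framed cells called. Grey cells are genes that did not pass the expression filter of that tissue and, in liver, Fah, whose values fall into separate clusters. Framed pairs are Hpd with Tat and with Hgd in liver, and Tat, Hpd and Tdo2 with each other and Kmo with Haao in lung. Hgd with Fah was also called in liver and is not drawn.

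In lung, 4 of 21 pairs were called. Tat and Hpd had r = 0.764, Tat and Tdo2 had r = 0.71, and Hpd and Tdo2 had r = 0.638, each with q = 0.00431 by the permutation test. These 3 genes, at medians of 14, 16 and 29 counts per lung, were also correlated with the summed level of 8 hepatocyte markers in the same libraries, with r = 0.638 for Tat, 0.69 for Hpd and 0.532 for Tdo2 (q = 0.00431, 0.00431 and 0.0422 by the permutation test). The marker sum ranged from 148 to 1075 CPM over the lungs with a median of 293, and Apoa2 and Ahsg were at or under 3 counts in the median lung while the other 6 markers were above. Lung medians were 35.6 CPM for Alb, 3.48 for Apoa1, 2.83 for Fgb and 0.358 for Serpina1d. Most of the median sum in lung thus came from the other markers, Ttr and Trf.

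The highest marker sums in lung were those of CC010 (1075 CPM) and CC015 (744 CPM). The same 2 lungs were the highest for Tdo2 (22.5 and 19.9 CPM), Hpd (22 and 12 CPM), Hgd (1.01 and 0.797 CPM) and Tat (7.24 and 13.1 CPM). In the CC010 lung, Alb was at 0.404% and Fgb at 0.722% of their level in the liver of the same mouse, and Tdo2 was at 0.701%, Hpd at 0.823% and Tat at 0.209%. Without strains CC010, CC015 and CC027, r was 0.708 for Tat and Hpd, 0.646 for Tat and Tdo2 and 0.556 for Hpd and Tdo2, and all 3 were still called. With the marker sum, Hpd (r = 0.603) and Tat (r = 0.551, q = 0.0322 by the permutation test) were still called without these strains and Tdo2 was not (r = 0.405, q = 0.328). The part of the marker sum in these correlations was not tested.

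Kmo and Haao in lung were also called (r = 0.589, permutation p = 1e-05, q = 0.00431; rho = 0.601, permutation p = 1e-05; r = 0.578 without the 2 farthest strains). Kmo was not called with the hepatocyte marker sum (r = 0.216, q = 0.754 by the permutation test), and Haao was not (r = 0.456, q = 0.148). Both genes belong to the middle of the kynurenine pathway, and both were above 3 counts in every lung.

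In kidney, Tdo2 was correlated with the hepatocyte marker sum (r = 0.571, q = 0.0239 by the permutation test), which ranged from 12.8 to 1219 CPM with a median of 211. Alb had a kidney median of 31.1 CPM, and as in lung most of the median sum came from Ttr and Trf. The kidney of CC027 had the highest sum and the highest Tdo2 (31.1 CPM) and Tat (14.6 CPM), and CC024 had the second highest sum (672 CPM) and Tdo2 (8.18 CPM). In the CC027 kidney, Alb was at 0.832% of its level in the liver of that mouse, Tdo2 at 1.42% and Tat at 0.981%. Hpd, Hgd, Fah, Kmo and Haao, by contrast, were at 2.94% to 58.8% of liver there, and their correlation with the marker sum was not called. The 3 genes with the highest rho with Tdo2 in kidney, chosen after the values were seen, were Mup3 (0.863), Cps1 (0.857) and Mug1 (0.852).

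**Figure D5:**
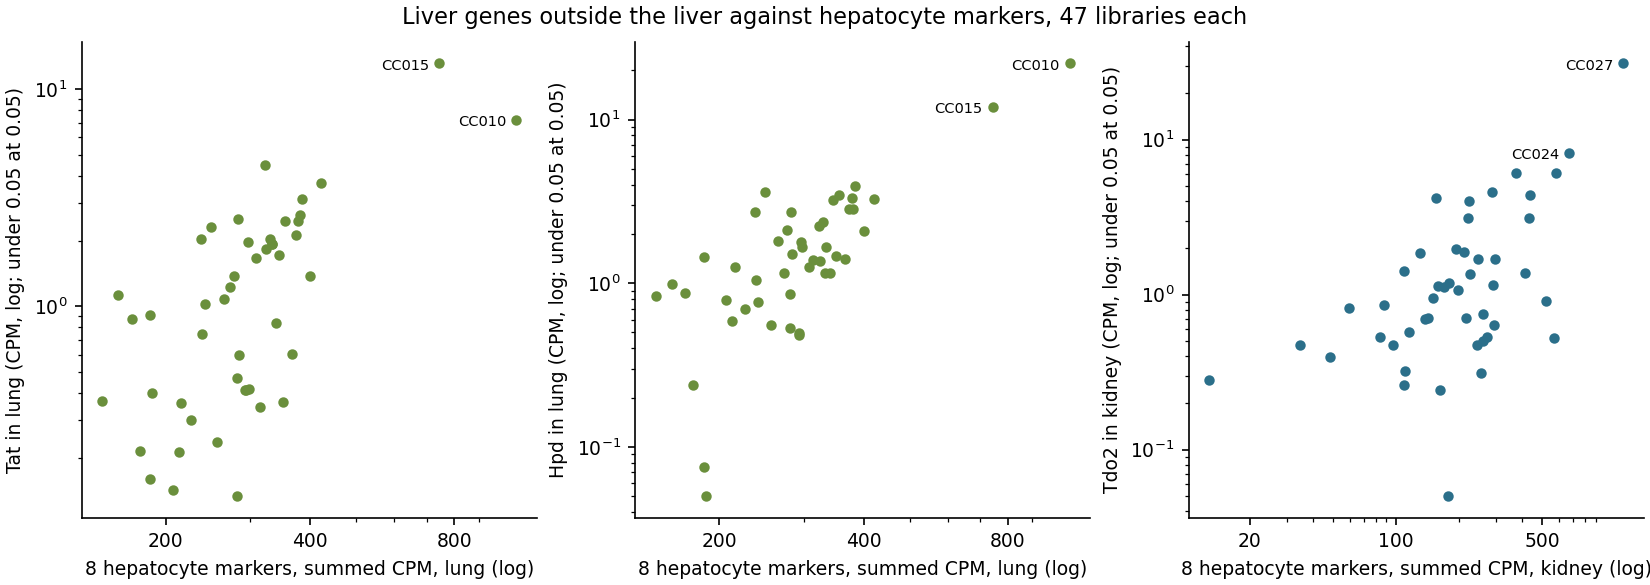
Tat and Hpd in lung and Tdo2 in kidney against the summed level of 8 hepatocyte markers in the same library, both as TMM-scaled CPM on log axes, 47 libraries in each panel. The lungs of CC010 and CC015 and the kidneys of CC027 and CC024 are highest on both axes.

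The genes most like each member across livers were taken as the 3 with the highest rho. Over the 27 genes so named, rho ranged from 0.557 to 0.769 and r from 0.522 to 0.778, or from 0.476 to 0.74 without the 2 farthest strains, and q of rho ranged from 0.0184 to 0.0437. These are the top of about 9000 genes for each member, and nothing is said here of shared control.

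Tat was followed most closely by Klf15, a transcription factor of amino acid breakdown (rho = 0.769), Pck1, the gluconeogenic carboxykinase (rho = 0.71), and the potassium channel Kcnk5 (rho = 0.696). Of 12 genes listed as glucocorticoid-induced, 9 were expressed in liver, and 6 of these were called positive with Tat by the permutation test, beside 1.13% of all genes called with Tat in either direction. The 6 were Pck1 (r = 0.767), Tsc22d3 (0.565), Zbtb16 (0.506), Igfbp1 (0.488), Angptl4 (0.486) and G6pc (0.467), with q from 0.015 to 0.0969. Fkbp5 had r = 0.386 (q = 0.207), and the metallothioneins Mt1 and Mt2 had 0.08 and 0.05. The median r of the 9 was 0.486, beside 0.03 over all 9001 genes. By rho, 3 of the 9 were called. For Tdo2, 0 of the same 9 genes were called by this permutation test with either coefficient, and 2 had an unadjusted p under 0.05.

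Tat was not called with any of the listed 5 clock genes, 7 fasting and PPAR-alpha genes, 6 acute-phase genes or 7 pericentral genes in liver. Genes were assigned to lists by name, and what changed their levels in these mice was not tested. Of the genes called with Tat, Pck1, G6pc, Igfbp1 and Angptl4 were placed on the glucocorticoid list and not on the fasting list. The lists therefore cannot separate a glucocorticoid from a fasting response. The clock gene farthest from 0 was Nr1d1 (r = -0.41, q = 0.164 by the permutation test). Of 6 periportal genes, Pck1, which is also on the glucocorticoid list, and Cps1, the first urea cycle enzyme (r = 0.493, q = 0.0719), were called. Only Pck1 was also called by rho.

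Hpd was followed by Fgf1 (rho = 0.67), Igfbp1 (rho = 0.66) and Slc16a10, the transporter of aromatic amino acids (rho = 0.641). Among the pathway lists it was also called with Afmid, the kynurenine formamidase (r = 0.63, q = 0.015 by the permutation test), and of the pericentral genes with Oat (r = 0.579) and Cyp2e1 (r = 0.474). Of these 2 pericentral genes, 1 was also called by rho. Hpd was called as well with 1 of 6 periportal genes, by r (r = 0.499) but not by rho. Of the 9 glucocorticoid-induced genes expressed in liver, 2 were called with Hpd (highest r = 0.639), and 1 was called by rho. Hgd had the most called relations of the 9, with 172 genes positive and 89 negative, 2.9% of the genes tested, and was followed by the proteasome subunit Psmd8 (rho = 0.759), Apoc4 (rho = 0.708) and D10Jhu81e (rho = 0.699). On the pathway lists it was called with Aldh8a1, of the kynurenine branch (r = 0.606), Pcbd1, which acts in tetrahydrobiopterin recycling (r = 0.513), and Gchfr (r = 0.504). Of 7 pericentral genes, 1 was called with Hgd (r = 0.473), and 1 was called by rho.

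Fah was followed, by rank of rho over all 47 strains, by Suox, the sulfite oxidase, Pmm2, a phosphomannomutase, and Ephx1, an epoxide hydrolase. Within the 40 strains above the gap, rho with Fah was 0.615, 0.57 and 0.46 in that order. Whether these 3 were also the nearest within the 40 was not examined. In kidney, chosen after the values were seen, the 3 genes nearest to Fah were Slc28a1 (chr7:88259685-88315302), Stard10 (chr7:108465600-108495140) and Clns1a (chr7:104845144-104867389), which all lie on the chromosome of Fah itself (chr7:91733669-91755232). Among the 3 nearest kidney genes of the other members, Hpd had Vps33a and Aldh2 on its own chromosome and Kynu had Nfe2l2. Hgd, Tdo2, Kmo, Haao and Ido2 had none on theirs.

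Of the kynurenine members in liver, Tdo2 was followed by Metap1 (rho = 0.644), Pkn2 (0.572) and Snrpa1 (0.564), with Metap1 and Pkn2 on the same chromosome as Tdo2. Kmo was followed by Cmas (0.572), Letm1 (0.571) and Slc10a5 (0.57), and was called with Aadat, which uses the same substrate (r = 0.5, q = 0.0583 by the permutation test). Kynu was followed by Dirc2 (0.625), Ctcflos (0.586) and Elovl3 (0.579). It was called with Got1 (r = 0.556) and Acmsd (r = 0.481). With the clock output factor Dbp it was called negatively by r (r = -0.52, q = 0.0387 by the permutation test) but not by rho. By r (r = 0.506), but not by rho, Kynu was also called with 1 of the 9 glucocorticoid-induced genes. Haao was followed by Uqcc2 (0.565), Gsr (0.562) and Aarsd1 (0.557), and was called with the next enzyme, Qprt (r = 0.5), and with Nadsyn1 (r = 0.506), which completes NAD. Ido2 was followed by Fam120c (0.641), C1qbp (0.596) and Fam117b (0.595), and was called by r, but not by rho, with the periportal gene Cyp2f2 (r = 0.494). Neighbouring steps of the kynurenine route were thus called for Haao with Qprt by r but not by rho, and not between the members themselves.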

How the data were processed

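Ribosome-depleted total RNA from 47 livers, 47 lungs and 47 kidneys was sequenced. The authors filtered reads for quality, removed adapters and mapped them with RSEM and STAR 2.5.3a to strain-specific versions of the mm9 genome and its RefSeq transcripts. The authors deposited expected counts and TPM made from uniquely aligned reads. FPKM columns were deposited by the authors too and were not used here. The 25 expected counts that were not whole were rounded. The study's models carried a sequencing batch that the labels used here do not give, so no batch term was fitted.

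Members and gene lists were chosen with earlier results of these data known. Genes above 1 CPM in at least 30% of libraries were kept, and tissues were compared with limma-voom (limma 3.58.1, edgeR 4.0.16 for TMM, R 4.3.3) with strain as a block, because the 3 tissues of a strain came from 1 mouse. A gene was called at a Benjamini-Hochberg q of at most 0.1 and a log2 fold change of 1 or more in either direction. Levels are CPM after TMM. Correlations across strains used TMM-normalized TPM of genes above 1 TPM in at least 50% of libraries of a tissue, rank inverse normal values and 100000 two-sided permutations, whose smallest p is 1e-05, with q over all relations of that tissue or pair of tissues. Each library is 1 mouse, so p-values cover the spread between strains and animals together. Library totals, given in the report, limit precision most for lung and kidney members near 3 counts. Each gene's nearest genes were the 3 with the highest rho in its tissue of highest mean, which was liver for all 9. Kidney neighbours were chosen after their values were seen. Gene positions are from GENCODE vM1 on NCBIM37. The scripts were tested on simulated data. Alternatives were DESeq2 1.42.0, edgeR's quasi-likelihood test, other scalings, filters and thresholds, no block, and leaving out strains. The values of 1 further gene of the pathway lists are not reported here.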

Additional observations from a re-analysis of the deposited data

How the results depend on the processing

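Of the tissue differences of the 9 genes recomputed under each alternative, 303 kept their direction and their side of the threshold, 13 passed it newly and 8 no longer passed, and none turned its direction. On both TPM scales, log2(TPM + 1) and log2(TPM + 0.1), 5 of the 9 genes were called between liver and kidney, and without a threshold on the fold change 32 of the other pathway genes were called there. Between lung and kidney, Tdo2 passed with values of 1.06 under DESeq2 size factors, 1.05 in the DESeq2 Wald test and up to 1.55 on log2(TPM + 0.1), Tat with 1.27 on that scale, and Kynu with -1.03 to -1.07 without the low-count filter, without CC010, CC015 and CC027, without Rn45s and under edgeR. Without the replicate block, that is without pairing the tissues of a mouse, Tdo2 was 1.07 between lung and kidney, and no other call of the 9 genes changed.

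On log2 CPM, 1 member (Fah) was correlated between liver and lung and 2 (Fah, Ido2) between liver and kidney, and without the 2 farthest strains 2 were (Fah, Hpd). With TPM not rescaled by TMM, 36 pairs of members were called in liver, 10 in lung and 11 in kidney. Without the 2 farthest strains 1 liver pair was called (Hpd and Hgd). Within the strains above the gap in liver Fah, a choice made after seeing the data, Fah between liver and lung turned to -0.14. Of 582 recomputed correlations of members that were not called, 75 changed sign. The causes were not tested. Depth limits Tat and Tdo2 in kidney and Tat, Hpd, Hgd and Ido2 in lung, where many libraries held few counts. Leaving out strains changed no count of called members in the tissue comparison by more than 1.5 times.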
